A study of Mus musculus with 16 samples.

Results

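The genes described here are the G1 cyclins Ccnd1, Ccnd2, Ccnd3, Ccne1 and Ccne2, the kinase Cdk4, and the inhibitors of cyclin-dependent kinases (CDKs) Cdkn1b, Cdkn2a, Cdkn2b and Cdkn2c. They were chosen by symbol, with earlier results of these data known, so the member counts below are descriptions. Every probe set of the array that names one of them and no other gene was taken. That gave 24 probe sets for the 10 genes, of 34945 probe sets that name 1 gene. Of these, 23 were tested among 21651 probe sets, namely those whose signal lay above the median of their array on at least 4 of the 16 arrays. The probe set left out, 1438805_at of Ccnd3, was at 16.1 to 92.0 on the 16 arrays and above the median on none of them.

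RNA came from mouse embryonic fibroblasts (MEF), connective tissue cells grown from mouse embryos, of 2 genotypes: wild-type (CHOP+/+) and CHOP-/-, which lacks CHOP, the stress-induced transcription factor encoded by Ddit3. Each genotype was left untreated or given MG132, an inhibitor of the proteasome, at 1 µM for 8 hours, with 4 arrays in each of the 4 groups and 1 culture plate per array. All cells grew in the same glucose-rich medium with fetal bovine serum. The untreated cells are recorded both as having had no treatment and as having had the solvent DMSO. The sources used here name no embryo or isolate for any plate. The p-values therefore measure the spread between these plates, and whatever else separates the cultures of the genotypes cannot be told apart from the loss of CHOP.

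In G1, the growth phase before DNA synthesis, mitogens induce D-type cyclins, which bind Cdk4 or Cdk6 and start to phosphorylate the retinoblastoma protein. Cyclin E with Cdk2 completes that step and releases E2F factors, which switch on genes of DNA synthesis. The Ink4 proteins encoded by Cdkn2a, Cdkn2b and Cdkn2c block Cdk4 and Cdk6, and p27, encoded by Cdkn1b, blocks cyclin E with Cdk2. Several of these proteins, among them cyclin D1, cyclin E and p27, are short-lived and are removed by the proteasome, so that MG132 acts directly on their protein level. The arrays measured RNA only.

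RefSeq promoter windows (mouse build GRCm38.p6, the 250 bases before an annotated transcription start) were found for 7 of the 10 genes, with 10 windows in all. Entries were missing for Ccnd1, Ccnd2 and Ccne2. Shown are the windows of Cdkn2b and of Cdk4, the kinase that its product inhibits, because these were the windows that held a full cAMP response element or an E-box. The first lies at chr4:89311033-89311282 on the minus strand and the other at chr10:127063285-127063534 on the plus strand, each directly upstream of the first exon of the gene and printed 5′ to 3′ along the gene. Capitals mark the cAMP response element TGACGTCA in Cdkn2b and the E-box CACGTG in Cdk4.
Cdkn2b: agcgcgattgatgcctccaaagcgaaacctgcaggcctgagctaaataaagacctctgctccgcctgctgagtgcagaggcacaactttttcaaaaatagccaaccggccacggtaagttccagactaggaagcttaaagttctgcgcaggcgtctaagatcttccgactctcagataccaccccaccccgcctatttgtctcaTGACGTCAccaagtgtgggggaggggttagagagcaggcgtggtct
Cdk4: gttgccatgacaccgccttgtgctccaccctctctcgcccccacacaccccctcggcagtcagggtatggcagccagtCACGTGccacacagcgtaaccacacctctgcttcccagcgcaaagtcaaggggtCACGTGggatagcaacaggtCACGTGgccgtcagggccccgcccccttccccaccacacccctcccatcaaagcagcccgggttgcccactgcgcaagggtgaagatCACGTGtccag
The element in Cdkn2b begins 46 bases before the start site. Those in Cdk4 begin 172, 118, 98 and 11 bases before it. Both strands were searched, and each of these motifs reads the same on either strand. Of 32851 promoter windows of the same length, 1.55% held the cAMP response element and 6.02% an E-box. The AP-1 motif TGANTCA and the motif TGATGNAA, written for dimers of C/EBP and ATF proteins, were in none of the 10 windows, against 6.75% and 3.45% of all windows. These matches describe letters in a window and not binding.

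Signals are MAS5 signals in arbitrary units, scaled by the authors to the same trimmed mean on each array. Changes are differences of log2(signal + 16) with their standard error (SE), and adjusted p-values are from limma with Benjamini-Hochberg adjustment over all tested probe sets. A change was called when its adjusted p was under 0.05, and "rose", "fell", "higher" and "lower" are used for calls. The number of arrays limits the precision, and levels are compared between groups for 1 probe set and not between genes. In RNA from whole cultures, a change in the share of cells in a phase of the cycle and a change of RNA per cell cannot be told apart.

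Ddit3 itself was measured by 1417516_at at 887 to 1127 on the untreated wild-type arrays and at 6891 to 8181 with MG132. In CHOP-/- cells it was at 343.1 to 393.2 untreated and 342.2 to 429.8 with MG132, so this probe set follows the genotype labels. Whether it reads the deleted part of Ddit3 was not tested. The other Ddit3 probe set, 1443897_at, lay between 163.1 and 345.5 on all arrays. Within a group, pairs of arrays had correlations of 0.981 to 0.990 over all tested probe sets. Of 16 fibroblast markers, 15 were tested, and their summed signal was 165701 to 187014 and 170528 to 189565 in untreated wild-type and CHOP-/- cells, and 154772 to 166288 and 140075 to 148558 with MG132. Single markers differed between the cultures: Pdgfra averaged 2351 in untreated wild-type and 118.3 in untreated CHOP-/- cells, whereas Thy1 averaged 227.5 and 2727, Postn 520.8 and 5538, and Dcn 38.48 and 1075. Of the markers of other cell types, Ptprc, Itgam and Tyrobp (leukocytes), Cdh1 (epithelium) and Pecam1 and Cdh5 (endothelium) were above the array median on 0 of 16 arrays, whereas Csf1r, Cd14, Epcam and Eng from the same lists were above it on 16 of 16. The 10 leukocyte markers, of which 4 were tested, summed to 958.3 to 1030 in untreated wild-type and 1641 to 1895 in untreated CHOP-/- cells, and to 1016 to 1217 and 2397 to 2597 with MG132. Cd14 made up most of this gap, at averages of 310.5 and 1054 untreated and 264 and 1736 with MG132. The other tested ones, Cd68, Csf1r and Laptm5, were not called between untreated genotypes. With MG132 Cd68 was lower in CHOP-/- cells (-0.78), Laptm5 higher (0.91) and Csf1r not called. Sums of 7 neural markers, 6 of them tested, were 5368 to 6337 and 1828 to 2212 untreated in wild-type and CHOP-/- cells, and 5037 to 5673 and 2394 to 2852 with MG132. Sox2 (1775 and 184.3 untreated) and Map2 (2417 and 346.3) made up most of the untreated gap. Untreated, Tubb3 was also lower in CHOP-/- cells (-1.01), and Nes, Gfap and Sox10 were not called. With MG132 Sox2 and Map2 stayed lower, whereas Tubb3 and Nes were higher (0.65 and 0.56). The 9 epithelial markers, 6 of them tested, summed to 969.8 to 1038 in wild-type and 387.3 to 600.4 in CHOP-/- cells untreated, and to 1847 to 2154 and 720.2 to 930.4 with MG132. What part these marker differences have in the results between genotypes or with MG132 was not tested.

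The RNA of all 3 D-type cyclins was lower with MG132 in both genotypes, with Ccnd1 falling 4.80-fold in wild-type and 4.01-fold in CHOP-/- cells. Ccne1, Cdk4 and Cdkn2c also fell in both genotypes. Cdkn1b fell in wild-type and narrowly passed in CHOP-/- cells, Cdkn2b fell in CHOP-/- cells, and Ccne2 rose slightly, a rise not called under 1 of the 3 other scalings. Genes are counted by their leading probe set, that with the highest mean over all arrays. In wild-type cells 18 of 23 member probe sets were called, from 8 of the 10 genes, where 58.8% of all tested probe sets were called. Of these, 17 were lower (31.5% of all tested) and 1 was higher (27.3% of all tested). Among CHOP-/- arrays 18 of 23 were called, from 9 genes (56.4% of all tested), 17 of them lower (32.3% of all tested) and 1 higher (24.1% of all tested). The median change of the member probe sets was -0.63 in wild-type and -0.39 in CHOP-/- cells, and that of all tested probe sets -0.02 and -0.06. Of all calls, 46.4% in wild-type and 42.7% in CHOP-/- cells were in the higher direction. These shares were 48.6% and 48.4% after quantile normalisation, and 40.8% and 47.4% after centring each array on the median of all its probe sets. They were 56.6% and 56.2% after each array was centred on the median of the tested probe sets. With MG132 that median changed by -0.10 in wild-type and -0.12 in CHOP-/- cells, so that changes of about this size depend on how arrays are scaled.

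Some array quality measures moved with the groups too. In wild-type cells the upper quartile of an array averaged 896.1 untreated and 832.9 after MG132, and for CHOP-/- cells these averages were 871.0 and 799.9. The ratio of 3′ to 5′ signals of Actb, a measure of RNA integrity, averaged 1.16 and 1.23 in wild-type and 1.15 and 1.21 in CHOP-/- cells. In each case the exact permutation p was 0.0286, two-sided and the smallest that 4 against 4 arrays allow, and 0.0915 after adjustment over the array checks. The upper quartile with MG132 also differed between genotypes, at the same p and adjusted p. What part these measures have in the results was not tested.

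Without treatment 17 of 23 member probe sets, from 7 genes, differed between genotypes, where 49.8% of all tested probe sets did. For the untreated CHOP-/- cells 9 were higher (25.7% of all tested), belonging to Ccnd2, Cdk4 and Cdkn2b, and 8 were lower (24.1% of all tested), belonging to Ccnd1, Ccne2, Cdkn1b, Cdkn2c and 2 probe sets of Ccnd2. With MG132 12 of 23 were called, from 5 genes by their leading probe sets (54.6% of all tested): 5 were higher in CHOP-/- cells, all of Ccnd2 (26.6% of all tested), and 7 were lower (27.9% of all tested), from Ccnd1, Ccnd3, Ccne1, Ccne2 and Cdkn2c. The members' share of calls with MG132, 52.2%, lay close to that of all tested probe sets. Counted by the probe set with the highest mean, 3 genes were higher and 4 lower in untreated CHOP-/- cells, and 1 was higher and 4 lower with MG132. That last count takes Ccnd3, Ccne2, Cdkn2c and Ccnd1 as lower, since the leading probe set of Ccne1 was not called. Of all calls with MG132, 48.8% were higher in CHOP-/- cells, and 60.3% after centring each array on the median of all its probe sets. The share was 55.7% after centring on the tested probe sets and 53.2% after quantile normalisation.

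The change with MG132 itself differed between genotypes for 10 of 23 member probe sets, from 4 genes, where 24.2% of all tested probe sets were called. In 8 of them, from Ccnd1 and Ccnd2, the change was less negative in CHOP-/- cells (11.2% of all tested were called in that direction). In the other 2, from Ccnd3 and Cdkn2b, it was more negative (13.0% of all tested). Of all calls of this difference, 46.2% were positive, and 49% after quantile normalisation. Centring each array on the median of its tested probe sets gave 50.9%, and on that of all its probe sets 64.5%. Responses of the genotypes are compared below through this difference, knockout minus wild-type.

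**Figure D1:**
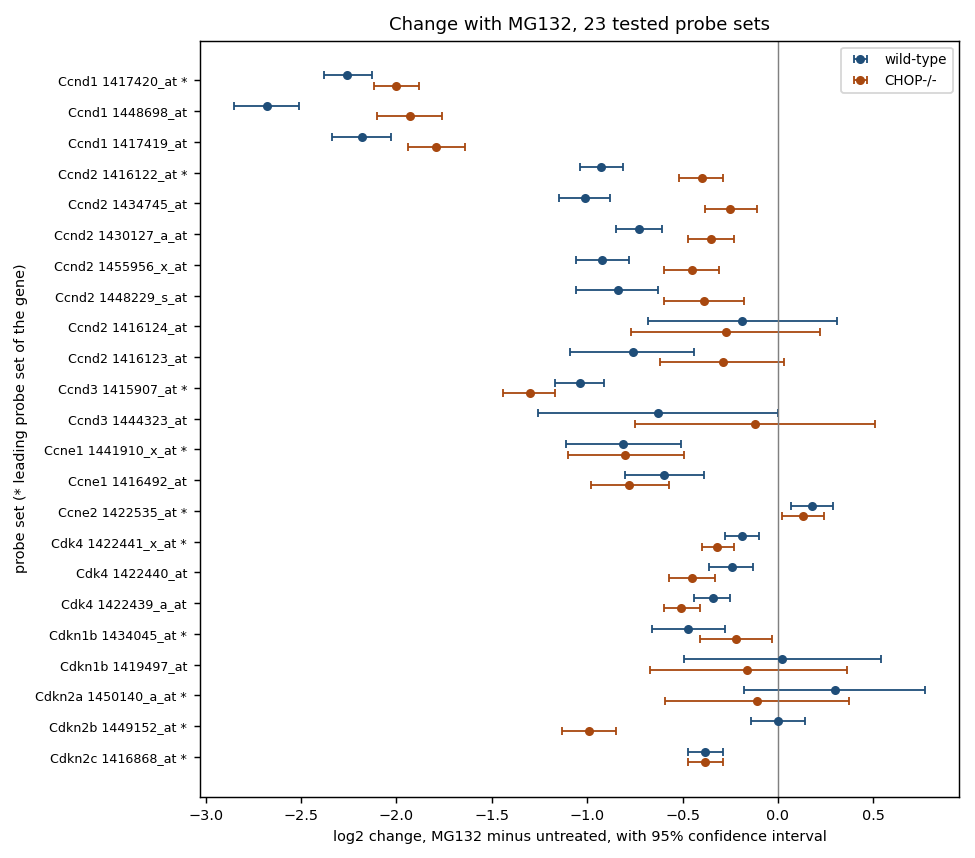
Change with MG132 for the 23 tested probe sets (log2, MG132 minus untreated, points with 95% confidence intervals) in wild-type (blue) and CHOP-/- cells (orange), with an asterisk at the leading probe set of each gene. The 3 probe sets of Ccnd1 lie farthest to the left, between -2.68 and -1.79, and Cdkn2b is at 0.00 in wild-type and -0.99 in CHOP-/- cells.

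Ccnd1 encodes cyclin D1, a D-type cyclin that mitogens induce in fibroblasts. Its leading probe set 1417420_at read 13312, 13140, 14001 and 13530 on the untreated wild-type arrays, and 3056, 2867, 2738 and 2589 with MG132. For CHOP-/- cells the arrays read 8382, 8437, 8788 and 8137 untreated, and 1892, 2202, 2282 and 2035 with MG132. The 4 groups did not overlap, and their order from high to low was untreated wild-type, untreated CHOP-/-, MG132 wild-type and MG132 CHOP-/-. The fall with MG132 was -2.26 (SE 0.06, adjusted p = 1.51e-16) in wild-type and -2.00 (SE 0.06, adjusted p = 1.34e-15) in CHOP-/- cells. Untreated CHOP-/- cells had 1.60-fold less Ccnd1 signal than untreated wild-type cells (-0.68, SE 0.06, adjusted p = 1.02e-08), and with MG132 1.34-fold less (-0.42, SE 0.06, adjusted p = 6.11e-06).

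The other Ccnd1 probe sets showed the same order with other sizes. 1448698_at averaged 11245 ± 391 (SD, n = 4) and 1742 ± 134 in wild-type cells without and with MG132, and 4514 ± 326 and 1180 ± 170 in CHOP-/- cells. On it the base level in CHOP-/- cells was 2.49-fold lower, and the fall with MG132 was 6.46-fold in wild-type and 3.83-fold in CHOP-/- cells. 1417419_at averaged 8019 ± 543 and 1754 ± 168 in wild-type cells, and 3883 ± 250 and 1113 ± 83.3 in CHOP-/- cells. The difference between the responses was 0.75 (SE 0.11, adjusted p = 9.07e-05) on 1448698_at and 0.40 (SE 0.10, adjusted p = 0.00813) on 1417419_at. On the leading probe set it was 0.26 (SE 0.08, adjusted p = 0.0292), or 0.26 (adjusted p = 0.0563) with a variance model without trend. The call also ended in 7 of the 16 fits that each left out 1 array, with values of 0.22 to 0.26 and adjusted p of 0.05 to 0.0660. The arrays were replicate 3 of the untreated wild-type group, replicates 1 and 4 of the untreated CHOP-/- group, replicates 3 and 4 of the wild-type group with MG132, and replicates 2 and 3 of the CHOP-/- group with MG132.

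Ccnd2 encodes cyclin D2, and its pattern across genotypes was opposite to that of Ccnd1 on most of its probe sets. The leading probe set 1416122_at read 5558, 6137, 6211 and 5910 on the untreated wild-type arrays, and 3006, 3196, 3227 and 3043 with MG132. Untreated CHOP-/- arrays read 9261, 8696, 9464 and 8859, and those given MG132 read 6577, 6519, 6706 and 7666. The groups did not overlap, and every CHOP-/- array with MG132 lay above every untreated wild-type array. The fall with MG132 was 1.91-fold in wild-type cells (-0.93, SE 0.05, adjusted p = 2.54e-11) and 1.32-fold in CHOP-/- cells (-0.40, SE 0.05, adjusted p = 3.4e-06). Comparing genotypes, the change differed by 0.53 (SE 0.08, adjusted p = 6.38e-05). The signal was 1.52-fold higher in untreated CHOP-/- cells (0.61, SE 0.05, adjusted p = 1.74e-08) and 2.20-fold higher in CHOP-/- cells with MG132 (1.13, SE 0.05, adjusted p = 1.31e-12).

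Ccnd2 had 7 tested probe sets, which did not all show the same base level. 5 were higher in untreated CHOP-/- cells, by 0.61 to 1.15, and 2 were lower. The lower ones were 1448229_s_at at -0.37 (SE 0.10, adjusted p = 0.00501) and 1416123_at at -0.44 (SE 0.16, adjusted p = 0.0256). With MG132 these 2 differed between genotypes by 0.08 (95% confidence interval -0.13 to 0.30) and 0.03 (-0.29 to 0.36), neither called, while the other 5 were higher by 1.07 to 1.83. The value of 1.83, a 3.60-fold difference, was on 1434745_at, which averaged 2005 ± 48.2 (SD, n = 4) in wild-type and 7209 ± 721 in CHOP-/- cells with MG132. What distinguishes the probe sets was not tested. The call of 1416123_at in untreated cells ended when replicate 1 or 4 of the untreated wild-type group or replicate 2 of the untreated CHOP-/- group was left out, at -0.43 to -0.31 (adjusted p = 0.0513 to 0.104).

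With MG132, Ccnd2 fell on 6 of its 7 probe sets in wild-type cells and on 5 of 7 in CHOP-/- cells. The exception in both was 1416124_at, at -0.19 (SE 0.24, adjusted p = 0.524) and -0.27 (SE 0.24, adjusted p = 0.347), whose untreated wild-type arrays spread from 215.3 to 689.8. Without replicate 1 of that group its change in wild-type cells was -0.52 (adjusted p = 0.00965). 1416123_at was the other probe set not called in CHOP-/- cells (-0.29, SE 0.16, adjusted p = 0.120). Responses differed between genotypes on 5 of 7 probe sets, at 0.37 to 0.77, and on each of these the fall was smaller in CHOP-/- cells. On 1448229_s_at that call (0.45, SE 0.14, adjusted p = 0.0261) ended without replicate 3 of the untreated CHOP-/- group, replicate 3 of the wild-type group with MG132 or replicate 2 of the CHOP-/- group with MG132 (adjusted p = 0.0566 to 0.0619). Without replicate 2 of the untreated wild-type group, 1416123_at was called too (0.64, adjusted p = 0.0210).

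A log2 difference between 2 probe sets on the same array is hardly touched by a factor applied to the whole array (the added 16 units are small beside these signals), though quantile normalisation can change it. The leading probe set of Ccnd2 minus that of Ccnd1 was -1.18 ± 0.07 (SD, n = 4, log2) in untreated wild-type cells and 0.15 ± 0.12 with MG132. In CHOP-/- cells it was 0.10 ± 0.04 untreated and 1.70 ± 0.18 with MG132. The untreated CHOP-/- arrays, at 0.04 to 0.14, lay inside the range of the wild-type arrays with MG132, at -0.02 to 0.24. The zero of this scale has no meaning because the probe sets differ in their response to RNA, and the shifts between groups are what it measures.

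Ccnd3, which encodes cyclin D3, fell with MG132 in both genotypes, and no genotype difference was called without it. Its probe set 1415907_at read 3598, 4018, 3389 and 3729 on the untreated wild-type arrays and 1779, 1758, 1693 and 1875 with MG132. In CHOP-/- cells it read 3627, 3823, 3570 and 4092 untreated, and 1496, 1634, 1512 and 1434 with MG132. The untreated groups overlapped, whereas all CHOP-/- arrays with MG132 lay below all wild-type arrays with MG132. The fall was 2.07-fold in wild-type (-1.04, SE 0.06, adjusted p = 3.05e-11) and 2.49-fold in CHOP-/- cells (-1.30, SE 0.06, adjusted p = 1.39e-12). The untreated difference between genotypes was 0.04 (95% confidence interval -0.09 to 0.17, adjusted p = 0.657), and that with MG132 was -0.22 (SE 0.06, adjusted p = 0.0049), or -0.13 (adjusted p = 0.236) after median centring over all probe sets.

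The difference between the Ccnd3 responses was -0.26 (SE 0.09, adjusted p = 0.0371) and ended in 11 of the 16 fits that left out 1 array, at -0.27 to -0.22 (adjusted p = 0.05 to 0.0853). It also ended with no filter (-0.26, adjusted p = 0.0509), with no trend in the variance (-0.26, adjusted p = 0.0538), after quantile normalisation (-0.24, adjusted p = 0.0532) or median centring over all probe sets (-0.17, adjusted p = 0.394), and for the mean of the probe sets of the gene (-0.10, adjusted p = 0.803). Among the fits without 1 array, it held without replicate 2 of the untreated wild-type group, replicates 1 and 3 of the untreated CHOP-/- group, replicate 3 of the wild-type group with MG132 and replicate 2 of the CHOP-/- group with MG132, and leaving out any of the other 11 arrays ended it. A further tested Ccnd3 probe set, 1444323_at, averaged 218.9 ± 38.9 (SD, n = 4) and 145.0 ± 62.5 in wild-type and 171.7 ± 70.5 and 153.5 ± 47.8 in CHOP-/- cells and was called in no comparison. It was called lower with MG132 in wild-type cells only without replicate 4 of the wild-type group with MG132 (-0.82, adjusted p = 0.0320) or after median centring over all probe sets (-0.68, adjusted p = 0.0441). When the probe sets of the gene were averaged, Ccnd3 changed by -0.28 in wild-type cells (adjusted p = 0.139). Gene means of Ccnd3 include the untested 1438805_at, which averaged 31.4 and 71.3 in wild-type cells without and with MG132. The size of the fall is thus that of 1 probe set.

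**Figure D2:**
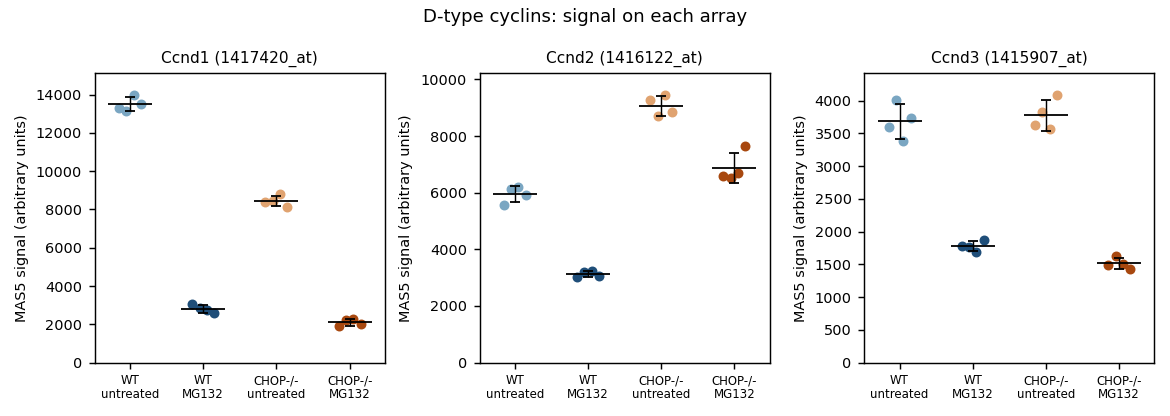
MAS5 signal (arbitrary units, axis from 0) of the leading probe sets of Ccnd1, Ccnd2 and Ccnd3 on each array in the 4 groups, with points for arrays and lines for the mean ± SD of 4 arrays. Ccnd1 is highest in untreated wild-type cells (13140 to 14001), Ccnd2 in untreated CHOP-/- cells (8696 to 9464), and Ccnd3 has overlapping untreated groups.

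The E-type cyclins moved in opposite directions with MG132. Ccne1, which encodes cyclin E1, read 1551, 1445, 1254 and 1520 on the untreated wild-type arrays by 1441910_x_at, and 669.2, 882.2, 815.4 and 907.1 with MG132. Untreated CHOP-/- arrays read 1562, 1301, 1393 and 813.9, and CHOP-/- arrays with MG132 read 642.6, 721.8, 751.2 and 701.7. The genotypes overlapped at each treatment, and 1 untreated CHOP-/- array lay inside the range of the wild-type arrays with MG132. Ccne1 fell by 0.81 on the log2 scale (SE 0.15, adjusted p = 7.82e-05) in wild-type and by 0.80 (SE 0.15, adjusted p = 0.000105) in CHOP-/- cells. For the difference between the responses the estimate was 0.01, with a 95% confidence interval of -0.42 to 0.45 (adjusted p = 0.972).

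The other Ccne1 probe set, 1416492_at, averaged 834.2 ± 101 (SD, n = 4) and 544.1 ± 16.2 in wild-type and 771.8 ± 17.2 and 446.3 ± 60.2 in CHOP-/- cells. It fell 1.53-fold and 1.73-fold with MG132. With MG132 it was lower in CHOP-/- cells by -0.29 (SE 0.10, adjusted p = 0.0176), where the leading probe set gave -0.21 (SE 0.15, adjusted p = 0.249). That call ended without replicate 1 or replicate 3 of the CHOP-/- group with MG132, at -0.25 to -0.22 (adjusted p = 0.0547 to 0.0730), and after quantile normalisation (-0.21, adjusted p = 0.0592) or median centring over all probe sets (-0.19, adjusted p = 0.200). Untreated cells of both genotypes differed by -0.10 on this probe set (95% confidence interval -0.31 to 0.10) and -0.22 on the leading one (-0.52 to 0.09).

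Ccne2, which encodes cyclin E2, differed mainly between genotypes. Its probe set 1422535_at read 4313, 3841, 4312 and 4293 on the untreated wild-type arrays and 4685, 4869, 4819 and 4567 with MG132. For CHOP-/- cells the arrays read 2876, 2636, 2839 and 2675 untreated, and 3153, 2935, 2884 and 3136 with MG132. All 8 CHOP-/- arrays lay below all 8 wild-type arrays. The signal was 1.52-fold lower in untreated CHOP-/- cells (-0.60, SE 0.05, adjusted p = 1.01e-08) and 1.56-fold lower with MG132 (-0.64, SE 0.05, adjusted p = 3.38e-09).

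The rise of Ccne2 with MG132 was small, at 0.18 (SE 0.05, adjusted p = 0.00682) in wild-type and 0.13 (SE 0.05, adjusted p = 0.0357) in CHOP-/- cells. Between the genotypes the rises differed by -0.04 (95% confidence interval -0.20 to 0.11, adjusted p = 0.728). Both rises ended after median centring over all probe sets, at 0.13 (adjusted p = 0.231) and 0.18 (adjusted p = 0.0951). The rise in CHOP-/- cells also ended without replicate 2 or 4 of its untreated group or replicate 1 or 4 of its MG132 group, at 0.11 to 0.12 (adjusted p = 0.0895 to 0.102).

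Cdk4, the kinase partner of the D-type cyclins, fell slightly with MG132 on all 3 of its probe sets in both genotypes. By 1422441_x_at it read 12860, 13136, 13702 and 12229 on the untreated wild-type arrays and 11744, 11505, 11078 and 11151 with MG132. Untreated CHOP-/- arrays read 15332, 14554, 14251 and 15305, and those given MG132 read 11824, 12118, 11589 and 12199. All untreated CHOP-/- arrays lay above all untreated wild-type arrays, and with MG132 the genotypes overlapped. The fall was -0.19 (SE 0.04, adjusted p = 0.000713) in wild-type and -0.32 (SE 0.04, adjusted p = 2.93e-06) in CHOP-/- cells. On the other 2 probe sets it was -0.24 and -0.34 in wild-type and -0.45 and -0.51 in CHOP-/- cells.

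Untreated CHOP-/- cells had more Cdk4 signal by 0.20 (SE 0.04, adjusted p = 0.000741) on the leading probe set and by 0.24 on each of the others. With MG132 the 3 probe sets differed between genotypes by 0.03 to 0.08, none called (adjusted p = 0.162 to 0.672). On 1422439_a_at this was called after median centring over all probe sets (0.17, adjusted p = 0.0419) and over tested ones (0.13, adjusted p = 0.0315), as was 1422441_x_at over tested ones (0.13, adjusted p = 0.0363). Responses of the genotypes differed by -0.13, -0.21 and -0.16 on 1422441_x_at, 1422440_at and 1422439_a_at (adjusted p = 0.142, 0.0644 and 0.0644). After quantile normalisation the difference was called on 1422440_at (-0.22, adjusted p = 0.0258) and 1422439_a_at (-0.16, adjusted p = 0.0407), and it was called for the mean of the 3 probe sets (-0.17, adjusted p = 0.0208). It was also called on 1422440_at without replicate 3 or 4 of the untreated wild-type group or replicate 2 of the wild-type group with MG132 (-0.24 to -0.23), and on 1422439_a_at without replicate 1 of the wild-type group with MG132 or replicate 3 of the CHOP-/- group with MG132 (-0.19). After centring on the median of the tested probe sets, the fall in wild-type cells was -0.09 (adjusted p = 0.132) on 1422441_x_at and -0.14 (adjusted p = 0.0590) on 1422440_at.

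Cdkn2b, which encodes the Ink4 inhibitor p15, was the inhibitor among the members for which the responses to MG132 differed between genotypes in the fit over all arrays. Its probe set 1449152_at read 2369, 2390, 2301 and 2421 on the untreated wild-type arrays and 2363, 2271, 2227 and 2640 with MG132. In CHOP-/- cells it read 4628, 5125, 4467 and 4939 untreated, and 2162, 2396, 2418 and 2640 with MG132. The 4 untreated CHOP-/- arrays lay far above the other 12, which overlapped. The signal was 2.02-fold higher in untreated CHOP-/- than in untreated wild-type cells (1.01, SE 0.07, adjusted p = 1.33e-10) and fell 1.99-fold with MG132 in CHOP-/- cells (-0.99, SE 0.07, adjusted p = 1.59e-10). In wild-type cells its change was 0.00 (95% confidence interval -0.14 to 0.14, adjusted p = 0.999), and the difference between the responses was -0.99 (SE 0.09, adjusted p = 2.91e-07). With MG132 the genotypes differed by 0.02 (95% confidence interval -0.12 to 0.15, adjusted p = 0.855). Each of these Cdkn2b calls kept its side of the threshold in all alternatives run.

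Cdkn2a lies next to Cdkn2b on chromosome 4 and gives rise to p16Ink4a and, in another reading frame, to p19Arf. The files do not say which of its transcripts the only probe set, 1450140_a_at, reads. It read 1202, 1734, 1542 and 1303 on the untreated wild-type arrays and 1724, 1481, 2103 and 1794 with MG132. Untreated CHOP-/- arrays read 1720, 2189, 1867 and 2080, and CHOP-/- arrays with MG132 read 2289, 896.1, 1852 and 2822. The groups overlapped throughout, and the last of them spread most, from 896.1 to 2822. No change was called: 0.30 (95% confidence interval -0.18 to 0.77, adjusted p = 0.277) with MG132 in wild-type cells, -0.11 (-0.59 to 0.37, adjusted p = 0.709) in CHOP-/- cells, and 0.45 (-0.03 to 0.92, adjusted p = 0.113) between untreated genotypes.

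In wild-type cells and between untreated genotypes these intervals hold positive changes of up to 0.77 and 0.92. They do not hold -0.47 and -0.42, the changes of Cdkn1b in the same comparisons. In CHOP-/- cells the interval holds the Cdkn1b change of -0.22. Without replicate 2 of the CHOP-/- group with MG132, the array at 896.1, Cdkn2a was higher in CHOP-/- cells both untreated (0.45, adjusted p = 0.00887) and with MG132 (0.37, adjusted p = 0.0358). A fit of the untreated groups alone also called the untreated difference (0.45, adjusted p = 0.00651).

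The genes beside this locus were also measured. Among the nearest 5 genes with a probe set of their own on each side of the pair, Mtap and Tusc1 were tested and the other 8 lay too low. Mtap, an enzyme of methionine salvage, averaged 11009 and 10847 in wild-type cells without and with MG132, and 11897 and 11088 in CHOP-/- cells. It was higher in untreated CHOP-/- cells by 0.11 (SE 0.04, adjusted p = 0.0397). Tusc1 averaged 1199 and 576 in wild-type and 1475 and 540 in CHOP-/- cells, and fell with MG132 (-1.04 and -1.43). It too was higher in untreated CHOP-/- cells, by 0.30 (adjusted p = 0.0045), and its fall was larger in CHOP-/- cells, by a difference of -0.39 (adjusted p = 0.0173).

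Cdkn2c, which encodes the Ink4 inhibitor p18, fell with MG132 in both genotypes. By 1416868_at it read 5837, 6510, 6084 and 6271 on the untreated wild-type arrays and 4632, 4798, 4684 and 4809 with MG132. For CHOP-/- cells the arrays read 5122, 5416, 5313 and 5447 untreated, and 4055, 4124, 3957 and 4237 with MG132. None of the groups overlapped, and CHOP-/- arrays were lower at each treatment. The fall was -0.38 (SE 0.04) in each genotype (adjusted p = 3.36e-07 in wild-type and 4.42e-07 in CHOP-/- cells), and the difference between the responses was 0.00 (95% confidence interval -0.13 to 0.13, adjusted p = 0.972). CHOP-/- cells were lower by -0.21 both untreated (SE 0.04, adjusted p = 0.000468) and with MG132 (SE 0.04, adjusted p = 0.00049), the latter not called after median centring over all probe sets (-0.11, adjusted p = 0.204).

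Cdkn1b, which encodes p27, fell with MG132 in wild-type cells. Its probe set 1434045_at read 2746, 3695, 3144 and 3533 on the untreated wild-type arrays and 2286, 2365, 2286 and 2483 with MG132. Untreated CHOP-/- arrays read 2333, 2567, 2316 and 2493, and those given MG132 read 2021, 2436, 1754 and 2183. The untreated wild-type arrays lay above all others, and the remaining groups overlapped. The fall in wild-type cells was 1.39-fold (-0.47, SE 0.09, adjusted p = 0.000193), and untreated CHOP-/- cells were 1.35-fold lower than untreated wild-type cells (-0.42, SE 0.09, adjusted p = 0.000659).

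In CHOP-/- cells Cdkn1b changed by -0.22 (SE 0.09, adjusted p = 0.0496), a call that ended in 13 of the 16 fits without 1 array, at -0.24 to -0.13 (adjusted p = 0.0508 to 0.205). It also ended under the 3 other scalings, at -0.18 (adjusted p = 0.107) after quantile normalisation, -0.17 (adjusted p = 0.150) after median centring over all probe sets and -0.09 (adjusted p = 0.380) over tested ones. Among the fits without 1 array, it held without replicate 1 or 2 of the untreated wild-type group or replicate 2 of the CHOP-/- group with MG132, and leaving out any of the other 13 arrays ended it. Between the genotypes the responses differed by 0.25 (95% confidence interval -0.02 to 0.52, adjusted p = 0.176), and 0.33 (adjusted p = 0.0421) without replicate 1 of the untreated wild-type group. With MG132 the genotypes differed by -0.17 (SE 0.09, adjusted p = 0.115), and by -0.25 (adjusted p = 0.0273) without replicate 2 of the CHOP-/- group with MG132. The other Cdkn1b probe set, 1419497_at, averaged 84.04 to 113.8 in the 4 groups, near the array medians, and was not called in any comparison. Averaged over both probe sets, Cdkn1b changed by -0.22 in wild-type cells (adjusted p = 0.110).

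**Figure D3:**
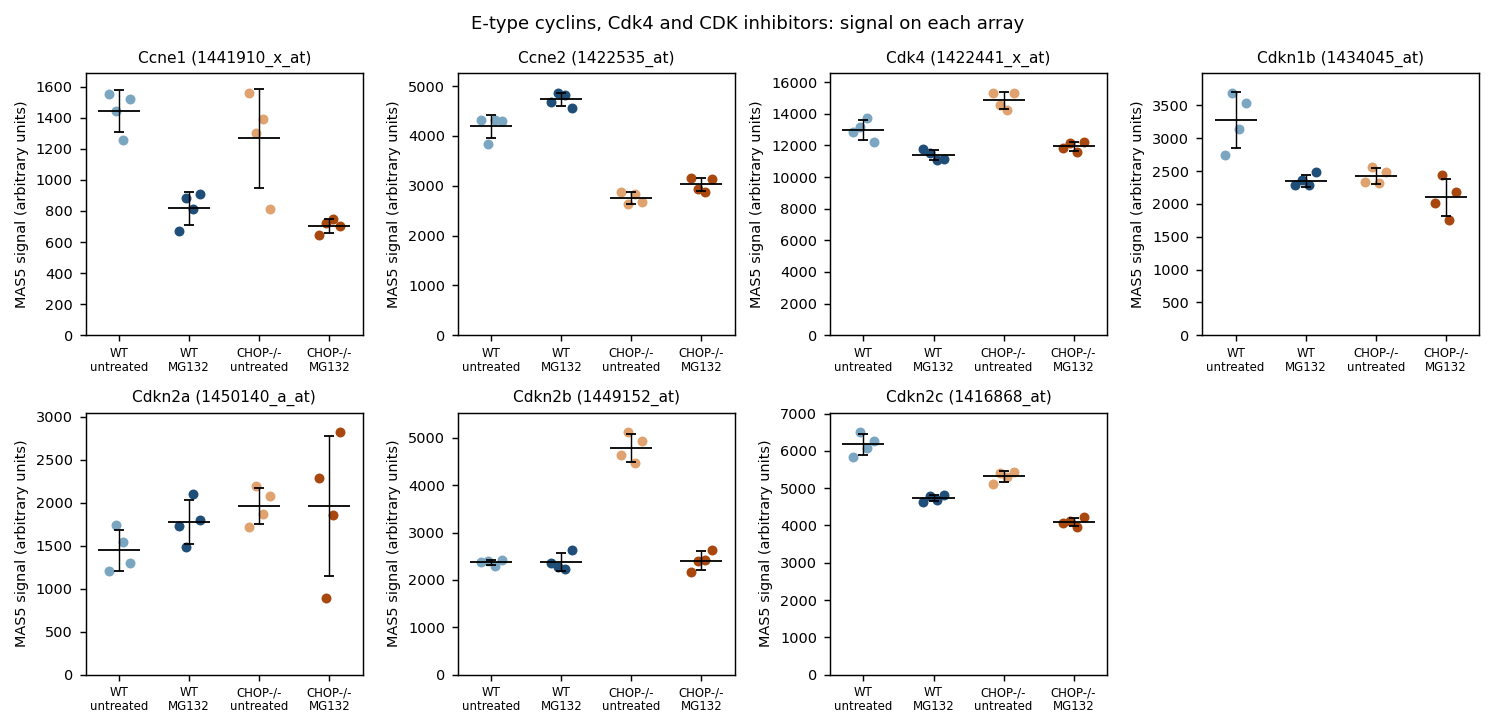
MAS5 signal (arbitrary units, axes from 0) of the leading probe sets of Ccne1, Ccne2, Cdk4, Cdkn1b, Cdkn2a, Cdkn2b and Cdkn2c on each array in the 4 groups, with points for arrays and lines for the mean ± SD of 4 arrays. The untreated CHOP-/- arrays of Cdkn2b, at 4467 to 5125, stand above the other 12, and all CHOP-/- arrays of Ccne2 lie below all wild-type arrays.

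Base levels by genotype thus put members of the same role on both sides. Among the D-type cyclins, untreated CHOP-/- cells had less Ccnd1 and more Ccnd2 on 5 of 7 probe sets, with Ccnd3 not called. Among the E-type cyclins, Ccne2 was lower and Ccne1 not called. Among the inhibitors, Cdkn2b was higher, Cdkn1b and Cdkn2c were lower and Cdkn2a was not called. For Cdkn2b, Cdk4 and Cdkn1b the genotype difference was called in untreated cells and not with MG132, and for Ccnd3 the reverse held on its leading probe set. The test of the difference between the responses, which asks whether the genotype difference itself shifted, was called for Cdkn2b in all alternatives run. For Ccnd3 it was called, and for Cdk4 and Cdkn1b it was not, but those 3 outcomes changed with the settings given above.

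**Figure D4:**
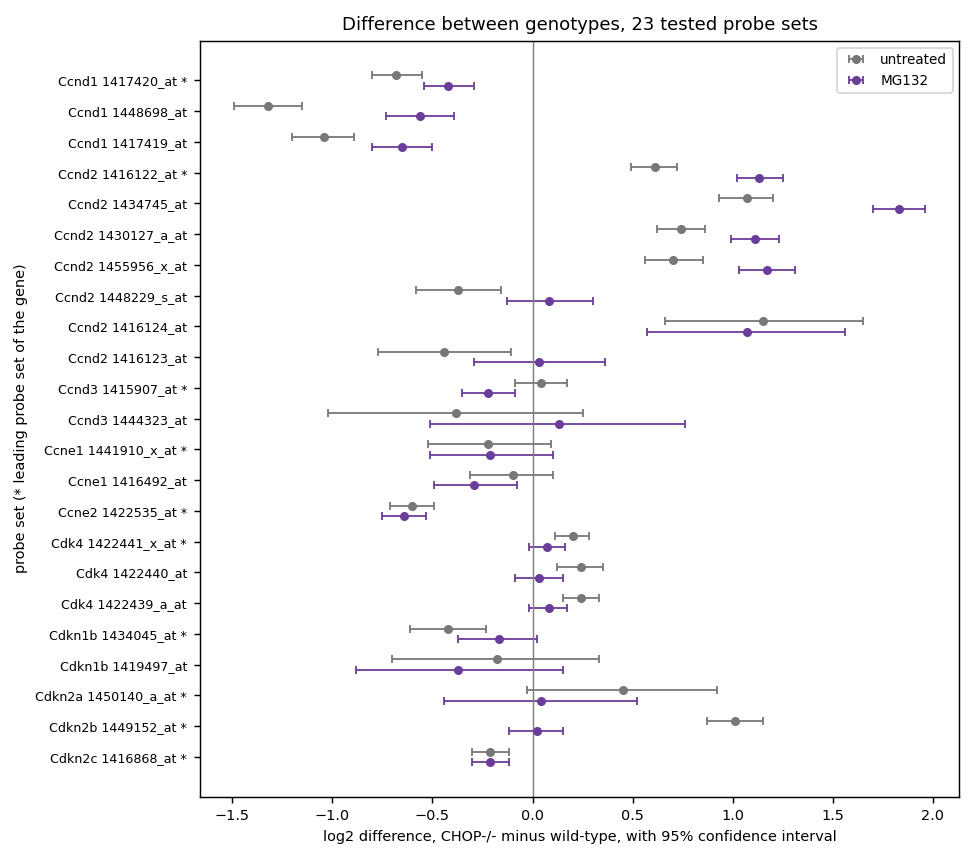
Difference between genotypes for the 23 tested probe sets (log2, CHOP-/- minus wild-type, points with 95% confidence intervals) in untreated cells (grey) and with MG132 (purple). Ccnd2 probe sets reach 1.83 with MG132, Ccnd1 probe sets lie between -1.32 and -0.42, and Cdkn2b moves from 1.01 untreated to 0.02 with MG132.

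Other genes of the G1 pathway are given from 6 lists, each gene by its leading probe set. The shares called and the medians of all tested probe sets, given above, are the background for these counts. That background is not limited to leading probe sets, for which no share was computed. Of 4 other CDK inhibitors, 2 rose and 2 fell in wild-type cells with MG132, and 1 rose and 2 fell in CHOP-/- cells (median changes 0.25 and -0.21). Cdkn1a, the p53 target p21, averaged 1546 and 3925 in wild-type and 1843 and 3713 in CHOP-/- cells, a rise of 1.34 (SE 0.09, adjusted p = 3.28e-10) and 1.00 (adjusted p = 2.41e-08). Cdkn2d, which encodes the Ink4 inhibitor p19, went the other way, averaging 2552 and 985.9 in wild-type and 2435 and 1145 in CHOP-/- cells (-1.36 and -1.08). In untreated cells Cdkn3, a phosphatase that acts on CDKs, was lower in CHOP-/- cells (-1.50), and Cdkn1c, the inhibitor p57, was higher (adjusted p = 3.13e-07). Cdkn1c averaged 42.21 in untreated wild-type cells, below the array medians, and 330.6 in untreated CHOP-/- cells, so no fold is given. It was above the array median on 9 of 16 arrays.

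The list of CDKs, other cyclins and CDK-activating kinase genes held 13 tested genes, among them Cdc25a, Cdc37 and Cables1, which are none of these. Of the 13, 6 rose and 4 fell in wild-type and 4 rose and 5 fell in CHOP-/- cells (medians 0.13 and 0.04). Cdc25a, Cdc37 and Cables1 were among the rises in wild-type cells (0.22, 0.19 and 0.52), and Cdc25a and Cdc37 among those in CHOP-/- cells. Cdk6, the other kinase partner of the D-type cyclins, averaged 3195 and 3141 in wild-type and 5963 and 3216 in CHOP-/- cells. As with Cdkn2b, untreated CHOP-/- cells were the group with the highest mean. They were higher than untreated wild-type cells by 0.89 (adjusted p = 2.14e-08). With MG132 Cdk6 changed by -0.02 (adjusted p = 0.816) in wild-type and -0.88 (adjusted p = 2.06e-08) in CHOP-/- cells, a difference of -0.85 (adjusted p = 2.56e-05). Ccng2, a cyclin linked to cell cycle exit, rose by 0.96 and 0.87 and was lower in untreated CHOP-/- cells (-1.29). Ccna2, the S-phase cyclin A2, fell (-0.52 and -0.35), and so did Ccng1, a p53 target (-0.22 and -0.48).

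The list of pocket proteins and E2F factors held 16 tested genes, among them Lin9, Lin54 and Hdac1, which are neither. Of the 16, 10 fell and 2 rose in wild-type cells with MG132 (median -0.30), and 8 fell and 6 rose in CHOP-/- cells (median -0.07). The 2 that rose in wild-type cells were Lin9 (0.43) and Lin54, and Hdac1 was among those that fell. Rbl1, the pocket protein p107, changed by -0.52 in wild-type and -0.18 in CHOP-/- cells, both called, with a difference of 0.34 (adjusted p = 0.000817). E2f5, a repressor E2F, fell (-0.87 and -0.94), and Lin54, of the DREAM complex, rose by 0.72 and 1.20. E2f6, a repressor that acts independently of pocket proteins, changed by -0.14 (adjusted p = 0.0414) in wild-type and rose by 0.54 (adjusted p = 1.04e-07) in CHOP-/- cells.

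Of 17 tested genes of ubiquitin ligases and of degradation of G1 cyclins and p27, 5 rose and 8 fell in wild-type and 4 rose and 6 fell in CHOP-/- cells (medians -0.05 and 0.03). Fbxo31 and Fbxo4, F-box proteins that target cyclin D1 for degradation, fell in wild-type (-2.26 and -1.49) and in CHOP-/- cells (-1.35 and -1.27). For Fbxo31 the responses differed by 0.91 (adjusted p = 0.000976). Skp2, the F-box protein that targets p27, averaged 4939 and 3429 in wild-type and 7781 and 4432 in CHOP-/- cells. It was higher in untreated CHOP-/- cells (0.65, adjusted p = 2.27e-10). Cacybp, a partner of the ligase Siah1, rose by 0.70 and 0.59, and Cul3, a cullin scaffold, rose by 0.35 and 0.48.

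Of 23 tested E2F targets of the G1 to S transition, 8 rose and 6 fell in wild-type and 9 rose and 5 fell in CHOP-/- cells (medians 0.02 and 0.09). In untreated CHOP-/- cells 11 were higher and 3 lower, and with MG132 14 were higher and 3 lower. Tk1, thymidine kinase, averaged 8793 and 2170 in wild-type and 8429 and 3510 in CHOP-/- cells, and fell in both (-2.01 and -1.26). Ezh2, a histone methyltransferase, rose by 0.93 and 1.13, and Chaf1b, a histone chaperone subunit, rose by 0.63 and 0.81. Gins1, of the replicative helicase, fell by 0.65 in wild-type cells and was at -0.08 (adjusted p = 0.210) in CHOP-/- cells. In untreated CHOP-/- cells Gins2, of the same complex as Gins1, and Cdt1, which loads the helicase onto DNA, were higher by 0.76 and 0.50.

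Of 18 tested mitogen and Ink4a/Arf regulators, 4 rose and 7 fell in wild-type and 7 rose and 9 fell in CHOP-/- cells (medians -0.10 and -0.16). Id1, which represses p16 in fibroblasts, averaged 8723 and 3426 in wild-type and 4746 and 863.3 in CHOP-/- cells, and fell in both (-1.34 and -2.44). Ets2, an activator of p16, rose by 1.14 and 0.76. Mdm2, the ligase of p53, rose by 1.10 and 1.02. Tcf7l2, a factor of the Wnt pathway that acts on Ccnd1, fell in both genotypes (-1.48 and -0.47), with a difference of 1.01 (adjusted p = 2.62e-05), and Foxo1, an activator of Cdkn1b, was lower in untreated CHOP-/- cells (-1.29).

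**Figure D5:**
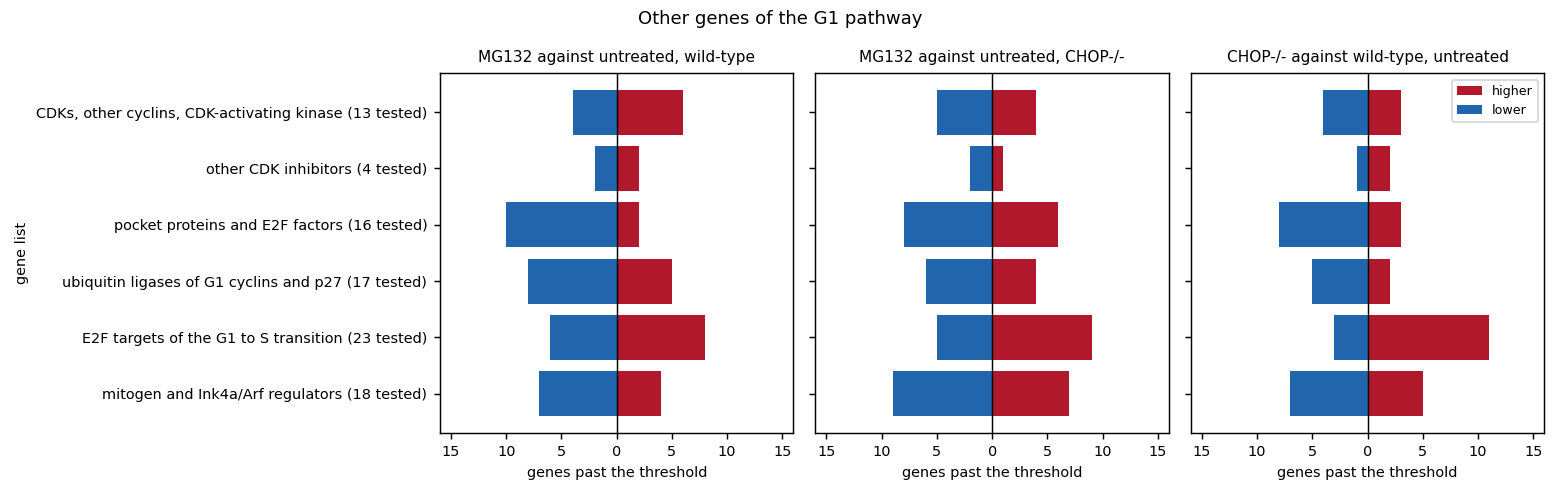
Number of genes higher (red, right) or lower (blue, left) at an adjusted p under 0.05 in 6 lists of other G1 pathway genes, for the MG132 response of each genotype and for the untreated genotypes. The list of pocket proteins and E2F factors also holds Lin9, Lin54 and Hdac1, and that of CDKs and cyclins Cdc25a, Cdc37 and Cables1. Of the 16 genes in the former, 10 were lower with MG132 in wild-type cells and 8 in CHOP-/- cells.

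Ccnd1 and Ccnd2 had the widest range of group means among the members, 2.68 and 1.54 on the log2 scale. The genes whose leading probe set followed Ccnd1 most closely over the 16 arrays were Chmp6 (r = 0.994), Phc2 (r = 0.993) and Smpd1 (r = 0.993). Chmp6 averaged 3399 and 1217 in wild-type and 2457 and 940.8 in CHOP-/- cells. Those that followed Ccnd2 were Cxcl12 (r = 0.991), Ttc5 (r = 0.990) and Xrcc6 (r = 0.986). Cxcl12, a chemokine of fibroblasts, averaged 6209 and 2702 in wild-type and 11582 and 7629 in CHOP-/- cells. These correlations are descriptions over 16 arrays that fall into 4 groups, so they mostly rank the group means.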

How the data were processed

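Per the labels' protocols, total RNA was extracted with Trizol, cleaned, labelled with a 3′ IVT kit and hybridised to Affymetrix arrays. The authors deposited linear signal intensities made with MAS5, per the submitters' processing notes. The sources used here do not give its version. After trimming 2% at each end, every array had a mean of 1000. The table held 45101 probe sets: 64 controls, 9160 naming no gene and 932 naming several were left out. Gene names came from the platform annotation, and of 34945 probe sets that name 1 gene, 34741 matched the reference (GRCm38.p6) by gene identifier.

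The deposited intensities were taken as log2(signal + 16). limma 3.58.1 in R 4.3.3 (lmFit, eBayes with trend, 12 residual and 6.973 prior degrees of freedom) was fitted over all 16 arrays with 1 coefficient per group and 5 two-sided contrasts. The leading probe set of a gene has the highest mean. The fit was tested on simulated data. Probe sets near 16 units have compressed changes. Alternatives were pseudocounts of 1 and 64, 3 other scalings, filters, variance models, gene-level fits, a replicate block and leaving out each array. From each pathway list up to 4 genes with the smallest adjusted p in the MG132 contrasts and 2 in the untreated genotype contrast were named, from Ccnd1 and Ccnd2 the 3 closest genes by Pearson correlation, and 5 neighbours on either side of Cdkn2a and Cdkn2b. Members and lists were chosen with earlier results of these data known.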

Additional observations from a re-analysis of the deposited data

Results flagged for a closer look

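In groups of 4 arrays, 5 of 96 combinations of a member probe set and a group held 1 array far from the other 3 (by the critical value of Dixon for 4 values), which chance meets in about 5% of groups. For Ccnd2 these were 7666 against 6519 to 6706 by 1416122_at in CHOP-/- cells with MG132 (replicate 4), 3856 against 3560 to 3596 by 1455956_x_at in the same group (replicate 1), and 2077 against 1976 to 1985 by 1434745_at in wild-type cells with MG132 (replicate 4). For Ccne2 it was 3841 against 4293 to 4313 by 1422535_at in untreated wild-type cells (replicate 2). For Cdk4 it was 8758 against 9482 to 9530 by 1422440_at in wild-type cells with MG132 (replicate 2).

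The change with MG132 differed between genotypes, by the test of the difference in limma (adjusted p under 0.05), on 10 probe sets. The differences, CHOP-/- minus wild-type, were 0.26, 0.75 and 0.40 on the 3 probe sets of Ccnd1 and 0.53, 0.77, 0.37, 0.47 and 0.45 on 5 probe sets of Ccnd2. They were -0.26 on Ccnd3 and -0.99 on Cdkn2b.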

How the results depend on the processing

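Over 30 alternatives, 115 member values (23 probe sets in 5 comparisons) were recomputed 3252 times. In 3158 the side of the threshold stayed, in 70 a call ended, in 24 one appeared, and 0 called values reversed. Direction was compared only where a value was called. Some uncalled values changed sign, as the response difference on 1416124_at of Ccnd2 did (-0.29 to 0.24). 28 values changed in some alternative, and several are given with the gene in the report. Besides these, the fall of Cdkn1b in CHOP-/- cells ended with no filter (-0.22, adjusted p = 0.0732), with a pseudocount of 1 (adjusted p = 0.0511), with no trend (adjusted p = 0.0813) and for the gene mean (-0.19, adjusted p = 0.177). For gene means the MG132 genotype difference was not called for Ccnd3 (-0.09, adjusted p = 0.666) and was called for Ccne1 (-0.25, adjusted p = 0.0382). The count of member genes whose responses differed was 4, with 2 under eBayes with no trend and 2 to 4 when 1 array was left out. The count of member genes that differed between genotypes with MG132 was 5, with 3 after median centring over all probe sets and 5 to 7 when 1 array was left out. Centring on the tested probe sets was added after the data were seen. After it and after centring on all probe sets, the fall of Ccnd2 1434745_at in CHOP-/- cells was -0.12 (adjusted p = 0.101) and -0.20 (adjusted p = 0.0826), neither called.

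Replicate numbers did not meet the criterion for pairing, a correlation over 0.1 in every pair: deviations of same-numbered arrays correlated at -0.0702 to 0.138 (median 0.0343, against -0.0131 for other pairs), over 0.1 in 4 of 24 pairs. As a hint from the data, not the design, 9 of 16 arrays correlated best with one of their own number. How many would do so without any link between same-numbered arrays was not computed. Between untreated and MG132 arrays, the lowest same-number correlation was -0.0702 in wild-type and 0.0343 in CHOP-/- cells. With the replicate block 18, 18, 12, 17 and 13 member probe sets were called in place of 18, 18, 10, 17 and 12 (wild-type response, CHOP-/- response, their difference, genotypes untreated and with MG132). The block added calls for the Cdk4 response difference (1422440_at -0.21, adjusted p = 0.0412, and 1422439_a_at -0.16, adjusted p = 0.0452) and for Cdkn1b between genotypes with MG132 (-0.17, adjusted p = 0.0384). Signals near the array median, as on 1444323_at and 1419497_at, limit what could be detected there.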

Other observations

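Among genes of the pathway lists, E2f6 and Lin54 were chosen after their values were seen because their genotype difference, like that of Cdkn2b and Cdk6, was called in untreated cells and not with MG132, though in the other direction. E2f6 averaged 2394 in untreated wild-type and 1520 in untreated CHOP-/- cells (-0.65, limma adjusted p = 8.66e-09), and 2174 and 2211 with MG132 (0.02, adjusted p = 0.743). Lin54 averaged 3304 and 2511 untreated (-0.39, adjusted p = 7.02e-06), and 5447 and 5777 with MG132 (0.08, adjusted p = 0.206). The difference between the responses was 0.67 (adjusted p = 5.23e-06) for E2f6 and 0.47 (adjusted p = 0.00019) for Lin54. They were not the only list genes with this pattern. Rbl1 and Rb1 were also lower in untreated CHOP-/- cells (-0.42 and -0.29) and not called with MG132 (-0.08 and 0.16). Their responses differed by 0.34 and 0.45 (limma adjusted p = 0.000817 and 0.00567).

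Cdk2, the kinase partner of cyclin E, was also chosen after its values were seen. It averaged 4484 and 3573 in wild-type cells without and with MG132 (-0.33, limma adjusted p = 1.94e-05), and 4420 and 4431 in CHOP-/- cells (0.00, adjusted p = 0.971). The difference between the responses was 0.33 (adjusted p = 0.00267).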
